A study of Mus musculus with 18 samples.

Results

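The 37 genes described here are transcripts of the dividing cell: 20 act in mitosis, 15 in S phase, and 2 are the D-type cyclins of G1. They were listed by role, with earlier results of these data known, and taken by symbol from the deposited tables. All 37 are among the 23420 genes of each table, and all 37 passed the filter on low values in each experiment. RNA of whole embryonic mouse lungs was sequenced in bulk in 3 experiments of 6 libraries each, 18 libraries in all, with 3 control and 3 mutant libraries in every experiment. The study asked how Wnt5a, a noncanonical Wnt ligand, and Vangl1/2, core proteins of planar cell polarity, set the position and direction of lung branches, and the comparisons here ask whether transcripts of cell division differed in those mutants.

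In the Vangl1/2 experiment, at E12.5 (days post coitum, dpc), the mutants were Vangl1-/-; Vangl2-/- and the controls Vangl1-/-. Both groups were thus homozygous for a gene trap allele of Vangl1 and differed in Vangl2, which a ubiquitous Cre (Sox2-Cre) had deleted. The Dermo1-Cre experiment, of the same age, compared mutants that were Wnt5a f/f; Dermo1Cre with controls that were Wnt5a f/+; Dermo1Cre. Dermo1-Cre acts in the mesenchyme. The Sox9-Cre experiment, at E13.5, compared mutants that were Wnt5a f/f; Sox9Cre with controls that were Wnt5a f/+; Sox9Cre. This Cre acts in the epithelium. The controls of both Wnt5a experiments carry the Cre and 1 floxed allele. The sources used here state neither the number of embryos behind a library nor whether libraries of a group came from different litters, so p-values measure only the spread between these libraries.

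A cell that leaves G1 needs the D-type cyclins, which activate Cdk4 and Cdk6 and release E2F factors from the retinoblastoma proteins. E2F factors then drive the S phase genes: the cyclins E, the loading factors Cdc6 and Cdt1, the Mcm helicase, the sliding clamp Pcna and ribonucleotide reductase. The mitosis genes follow in G2, when B-Myb and FoxM1 act with the MuvB complex on promoters that carry a CCAAT box and a CHR element. In the lung of this age both the branching epithelium and the mesenchyme around it divide, so the transcripts come from many cell types. In bulk RNA, fewer cycling cells and less of a transcript per cycling cell cannot be told apart.

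The promoters show that division of the list. Of the 37 members, 29 have a promoter in the RefSeq windows of GRCm38.p6, which reach from 250 bases before to 50 bases after the start of transcription. Ccna2, Aurkb, Tpx2, Mcm4, Gins2, Ccne2, Ccnd1 and Ccnd2 have none there. The motifs searched, on both strands, were CCAAT for the CCAAT box, TTTGAA or TTCGAA for the CHR, and TTTGGCGC, TTTCCCGC, TTTCGCGC or TTTGCCGC for the E2F site. A CCAAT box together with a CHR was found for 13 of 17 mitosis genes (76.5%) and for 2 of 12 S phase genes, against 8.61% of 27025 genes with such a window. An E2F site was found for 7 of 12 S phase genes (58.3%), for Cdk1 alone among the mitosis genes, and for 2.6% of all genes. A CCAAT box, with or without a CHR, was held by 15 mitosis and 9 S phase genes, and by 41.1% of all genes. The 250 bases before the start are given for 2 mitosis genes and 2 S phase genes, from RefSeq on GRCm38.p6. They run in the direction of transcription, with every match of a searched motif in capitals. These are chosen examples that hold a CCAAT box with a CHR (mitosis) or with an E2F site (S phase). Not every gene of either class holds both motifs. Cdc20 (chr4:118437344-118437593, minus strand) and Mki67 (chr7:135716380-135716629, minus strand) hold CCAAT boxes with 1 and 2 CHR elements, and Mcm5 (chr8:75109259-75109508, plus strand) and Mcm6 (chr1:128359706-128359955, minus strand) hold CCAAT boxes and E2F sites.
Cdc20: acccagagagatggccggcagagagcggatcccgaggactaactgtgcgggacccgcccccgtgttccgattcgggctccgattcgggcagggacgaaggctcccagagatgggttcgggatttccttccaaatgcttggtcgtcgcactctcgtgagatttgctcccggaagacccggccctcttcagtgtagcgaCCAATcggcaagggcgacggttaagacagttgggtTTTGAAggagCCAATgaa
Mki67: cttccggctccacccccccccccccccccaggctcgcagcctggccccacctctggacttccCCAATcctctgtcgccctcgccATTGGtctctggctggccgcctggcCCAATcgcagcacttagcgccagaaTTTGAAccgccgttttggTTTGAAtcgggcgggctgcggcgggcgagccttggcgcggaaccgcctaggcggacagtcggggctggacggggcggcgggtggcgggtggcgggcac
Mcm5: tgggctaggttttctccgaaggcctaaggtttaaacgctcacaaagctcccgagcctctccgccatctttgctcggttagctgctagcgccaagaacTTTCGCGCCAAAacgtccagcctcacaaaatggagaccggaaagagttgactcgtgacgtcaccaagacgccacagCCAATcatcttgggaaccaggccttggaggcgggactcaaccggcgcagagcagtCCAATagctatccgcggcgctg
Mcm6: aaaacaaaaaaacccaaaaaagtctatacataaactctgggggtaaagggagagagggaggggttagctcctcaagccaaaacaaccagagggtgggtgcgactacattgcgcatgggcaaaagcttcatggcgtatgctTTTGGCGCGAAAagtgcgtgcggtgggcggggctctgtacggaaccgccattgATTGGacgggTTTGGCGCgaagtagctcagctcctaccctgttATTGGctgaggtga
A match is a description of letters and not of a bound factor. Cdc20 and Mki67, which share the CCAAT and CHR letters, differed in sign in the Vangl1/2 comparison below.

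The files hold normalized counts, which are reads per gene divided by a size factor of each library. The libraries held 15945393 to 19814346 gene reads, and the size factors lie between 0.952 and 1.07, so a normalized count is close to 1 read. The mean of the controls ranged over the members from 489.8 (Ccne2, Sox9-Cre experiment) to 15513 (Mki67, Sox9-Cre experiment) normalized counts, so counting error is small for all of them. Of the targeted genes, Vangl2 lay at 277 to 406 normalized counts in the Vangl1/2 controls and at 79.8 to 89.6 in the mutants. Wnt5a lay at 429.6 to 489 in the Dermo1-Cre controls, and at 317 and 229.7 in mutant replicates 1 and 3, but at 436 in the library labelled mutant replicate 2, which is a control level. For the Sox9-Cre experiment, control levels of Wnt5a were 426 to 473 and mutant levels 362 to 448, with overlapping groups, so its level does not check those labels. Markers of epithelium and mesenchyme were present in every library. Results are also given without the library labelled mutant replicate 2 of the Dermo1-Cre experiment.

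Compared per kilobase of transcript, the members spanned a wide range of levels in the Dermo1-Cre controls (RPKM over gene reads, mean ± SD, n = 3). Pcna, the clamp of the replication fork, was the most abundant at 230 ± 6.79, followed by Top2a, which untangles chromosomes, at 157 ± 5.26. Ccna2, the cyclin of S phase and G2, followed at 114 ± 4.21, then Rrm1, the large subunit of ribonucleotide reductase, at 107 ± 3.80, and Mcm6 at 104 ± 2.53. Of these neighbours, Ccna2 and Rrm1 differ by less than 2 SD, and so do Rrm1 and Mcm6, while Pcna and Top2a stand clear of the rest. The 6 Mcm subunits, which form a ring with 1 copy of each, lay between 80.7 (Mcm5) and 104 (Mcm6). The 2 D-type cyclins were nearly equal, at 99.0 ± 3.87 for Ccnd1 and 98.0 ± 2.17 for Ccnd2. The 2 cyclins E were not: Ccne1 lay at 38.6 ± 0.939 and Ccne2 at 11.3 ± 1.60. At the low end were Cdc6 (21.0 ± 1.15), the kinetochore protein Cenpf (20.6 ± 0.672), Ccne2 and the helicase cofactor Gins2 (10.6 ± 0.132). The order depends on the annotated length of each gene, a median over transcripts, and which transcript the lungs used was not tested.

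In the Vangl1/2 mutants no member passed an adjusted p of 0.05 by limma. The largest differences were seen in Mki67, the antigen by which dividing cells are stained, at 1.5 times the control level, in Cenpf and Cenpe, which link kinetochores to the spindle, and in Ccnd2, all higher in mutants. Gins2, Birc5 and Cdk1 were the lowest. Of the 37 members 0 passed by limma, edgeR or DESeq2, and of all 14303 genes tested 0.00699% did by limma. At an unadjusted p under 0.05, 4 members were higher (Mki67, Cenpf, Cenpe and Ccnd2), against 12% of all genes, and 3 were lower (Gins2, Birc5 and Cdc20), against 8.56%. The smallest adjusted p among the members was 0.233 by limma and 0.101 by DESeq2. On simulated data with the spread of this experiment, limma recovered 30% of genes changed by 1.5-fold, so a change the size of that of Mki67 could be missed. The median log2 fold change of the members was -0.06, and that of all genes tested was -0.0093.

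**Figure D1:**
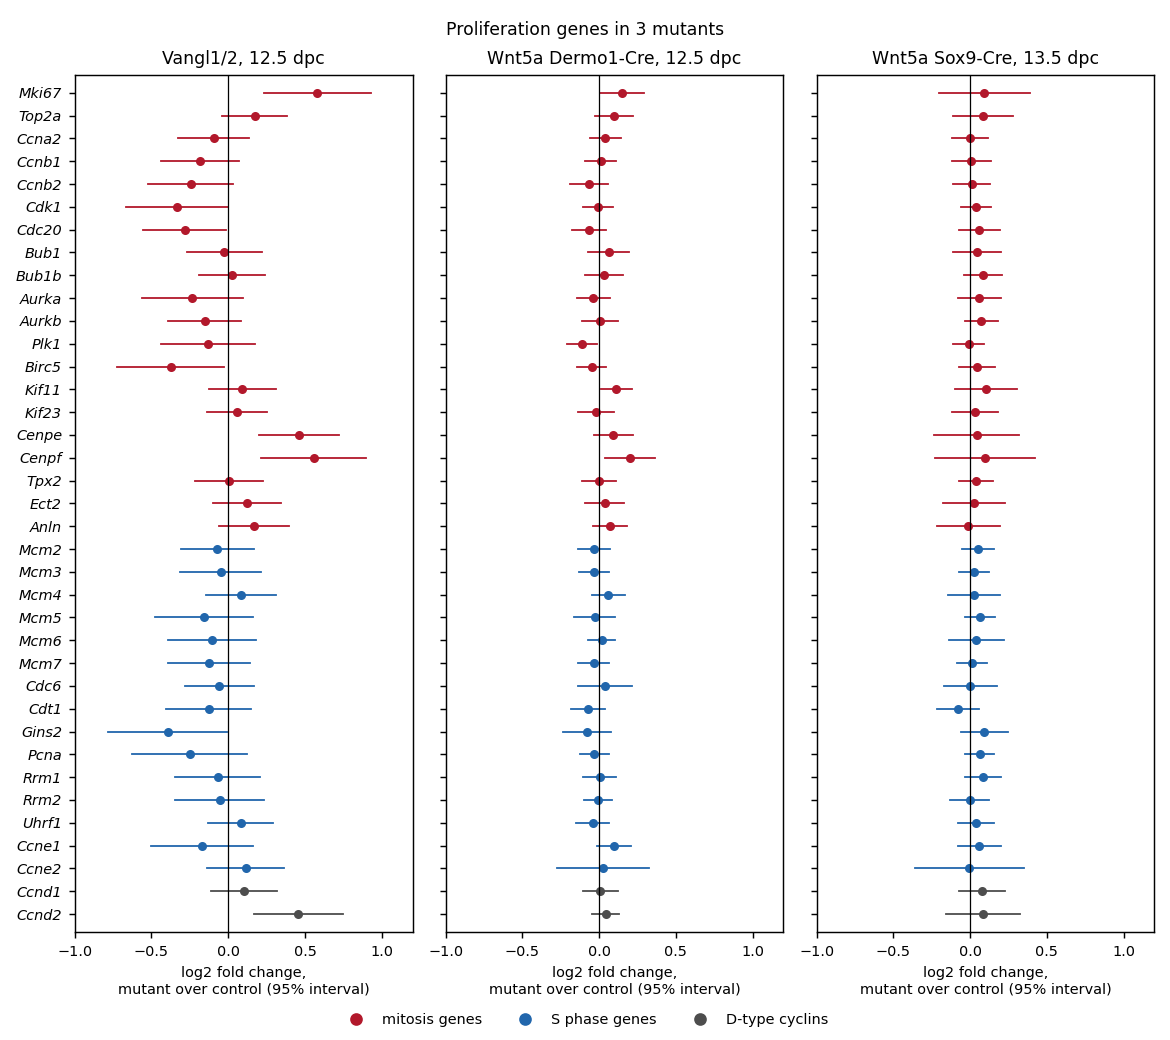
Log2 fold change of each of the 37 members, mutant over control, with its 95% interval from limma (3 libraries against 3); 1 panel per experiment, and colours give the role groups. The points spread from -0.40 to 0.58 in the Vangl1/2 experiment, from -0.11 to 0.20 in the Dermo1-Cre experiment and from -0.08 to 0.10 in the Sox9-Cre experiment.

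Among the mitosis genes of the Vangl1/2 experiment, Mki67 lay at 10594, 14792 and 10106 normalized counts in the controls and at 18238, 16908 and 17197 in the mutants. Cenpf lay at 2454, 3607 and 2603 normalized counts in the controls and at 4254, 3948.5 and 4355.5 in the mutants. Cenpe lay at 2152, 2702.5 and 2230 normalized counts in the controls and at 3454, 3040 and 3237 in the mutants. In all 3 genes each mutant library lay above each control library, and control replicate 2 lay between the mutants and the other 2 controls. The log2 fold changes were 0.58 ± 0.15 (SE) for Mki67, 0.56 ± 0.15 (SE) for Cenpf and 0.46 ± 0.11 (SE) for Cenpe. Top2a lay at 12409, 13200 and 13149 normalized counts in the controls and at 14886, 14142 and 14607 in the mutants. The groups of Top2a did not overlap either, at a log2 fold change of 0.17 ± 0.09 (SE).

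The cyclin B kinase and its regulators lay on the other side. Ccnb1 lay at 3878, 3375 and 4269 normalized counts in the controls and at 3596, 3276.5 and 3229 in the mutants. Cdk1 lay at 5015, 3633.5 and 5294.5 normalized counts in the controls and at 3691, 3754 and 3478 in the mutants. Cdc20 lay at 3362, 2708 and 3502 normalized counts in the controls and at 2583, 2742 and 2491 in the mutants. Ccnb1 and Cdk1 form the kinase that starts mitosis, and Cdc20 activates the ligase that ends it. In each of the 3 genes control replicates 1 and 3 were the highest of the 6 libraries, while control replicate 2 lay among the mutants. The log2 fold changes were -0.18 ± 0.11 (SE) for Ccnb1, -0.33 ± 0.15 (SE) for Cdk1, at an unadjusted p of 0.0502, and -0.28 ± 0.12 (SE) for Cdc20. Birc5 lay at 4063, 2869 and 4180.5 normalized counts in the controls and at 3011, 2823 and 2633 in the mutants. Birc5, a subunit of the chromosomal passenger complex, was again lower in the mutants than in control replicates 1 and 3 but overlapped control replicate 2, at -0.37 ± 0.15 (SE). Of the other mitosis genes, Ccna2, Ccnb2, Aurka, Aurkb and Plk1 lay between -0.24 and -0.09, Bub1, Bub1b, Tpx2, Kif23 and Kif11 between -0.02 and 0.09, and Ect2 and Anln, which act in cytokinesis, at 0.12 and 0.17.

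The S phase genes of the Vangl1/2 experiment were lower more often than higher, 12 of 15, with a median log2 fold change of -0.07. Mcm2 lay at 5921, 5009 and 6101 normalized counts in the controls and at 5521, 5251 and 5384 in the mutants. Mcm6 lay at 7989, 6601 and 8754 normalized counts in the controls and at 7566, 6617 and 7389.5 in the mutants. Pcna lay at 6960, 4842 and 7589.7 normalized counts in the controls and at 5613.5, 5261 and 5129.5 in the mutants. The 6 libraries of each gene overlapped between the groups, and control replicate 2 was the lowest library of Mcm2, Mcm6 and Pcna. The log2 fold changes were -0.07 ± 0.10 (SE), -0.11 ± 0.13 (SE) and -0.25 ± 0.16 (SE) in that order. Rrm2 lay at 5078, 3863 and 4931 normalized counts in the controls and at 4804, 4228 and 4234 in the mutants. Cdt1 lay at 1972, 1461 and 1785.5 normalized counts in the controls and at 1569, 1579 and 1594 in the mutants. Rrm2, the subunit of ribonucleotide reductase that limits the supply of deoxynucleotides, differed by -0.06 ± 0.13 (SE), and the loading factor Cdt1 by -0.13 ± 0.12 (SE), with overlapping groups in both.

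Uhrf1 lay at 6104, 5425 and 5945 normalized counts in the controls and at 6391, 6066 and 6000 in the mutants. Ccne1 lay at 2481, 1881 and 2109 normalized counts in the controls and at 2209, 1914 and 1634 in the mutants. Gins2 lay at 1382, 948 and 1486 normalized counts in the controls and at 1032.5, 924 and 896 in the mutants. Uhrf1, which passes DNA methylation to the new strand, differed by 0.08 ± 0.09 (SE), Ccne1 differed by -0.17 ± 0.14 (SE), and Gins2 had the lowest value of the list at -0.40 ± 0.17 (SE). Each of these overlapped between the groups, for Gins2 through control replicate 2. The remaining S phase genes, Mcm3, Mcm4, Mcm5, Mcm7, Cdc6, Rrm1 and Ccne2, lay between -0.16 and 0.11. The D-type cyclins had groups that did not overlap. Ccnd1 lay at 6239, 6142 and 6123 normalized counts in the controls and at 6348, 6308 and 7242 in the mutants. Ccnd2 lay at 8842, 11301 and 8519.8 normalized counts in the controls and at 13255, 12358 and 13437 in the mutants. Ccnd1 differed by 0.10 ± 0.09 (SE) and Ccnd2 by 0.46 ± 0.13 (SE). In all, 6 members had groups that did not overlap and were higher in mutants (Mki67, Top2a, Cenpe, Cenpf, Ccnd1 and Ccnd2), against 13.6% of all genes, and 0 were lower, against 8.68%.

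**Figure D2:**
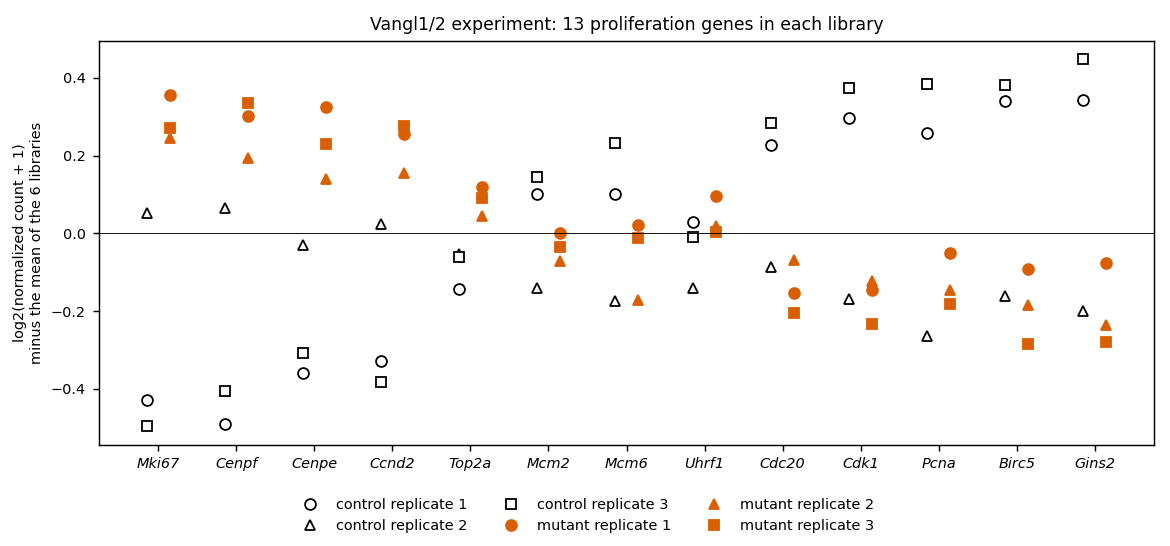
Values of 13 members in the 6 libraries of the Vangl1/2 experiment, as log2(normalized count + 1) minus the mean of the 6 libraries; open symbols are controls, filled symbols mutants, and shapes give the replicate number. Control replicate 2 (open triangle) lies nearer to the mutants than to control replicates 1 and 3 for most genes shown, as it does for 30 of the 37 members. The like count over all genes is not given here.

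The absence of adjusted calls in the Vangl1/2 experiment rested on control replicate 2. On the log2 scale control replicate 2 lay nearer to the mean of the mutants than to that of the other 2 controls for 30 of the 37 members. The like count over all genes is not given here, so this placement is not a result about the members. With this library left out, 19 members passed an adjusted p of 0.05 by limma. Of these, 6 were higher, against 21.7% of all genes, and 13 were lower, against 22%. Those higher were Mki67 (0.75), Cenpf (0.73), Ccnd2 (0.58), Cenpe (0.56), Anln (0.24) and Top2a (0.19, all log2 fold changes). Those lower were led by Gins2 (-0.59), Birc5 (-0.55), Cdk1 (-0.50) and Pcna (-0.45), followed by Cdc20, Aurka, Ccnb2, Mcm5, Ccnb1, Cdt1, Mcm7, Aurkb and Mcm6, and the median of the members was -0.16. The groups of 7 members then did not overlap with mutants higher, against 31.3% of all genes, and of 18 with mutants lower, against 32.5%. Without control replicate 2, the member shares lay below the backgrounds for higher values and above them for lower values. The remaining controls, replicates 1 and 3, also differed from every mutant library in the trend on transcript length given below. That trend was not removed in this fit, so genotype and trend cannot be told apart in it. With any other library left out, 0 members passed the adjusted threshold, and at an unadjusted p under 0.05, 4 were higher and 0 were lower. The shares of all genes at that unadjusted threshold were then 3.74% higher and 1.62% lower without control replicate 1, and 5.33% and 2.1% without control replicate 3. They were 6.41% and 3.7%, 6.43% and 4.31%, and 5.27% and 2.48% without mutant replicates 1, 2 and 3. Of markers of other cell types, the 8 mesenchyme markers had a median log2 fold change of 0.37, with 3 higher and 1 lower without overlap, and sums of 34982 to 83246 normalized counts in the controls and 60852 to 78670 in the mutants. The 5 smooth muscle markers had a median of -0.51, with 2 lower without overlap and sums of 8146 to 12039 against 6226 to 9239, and the 3 tested of 4 mesothelium markers had a median of 0.64, with sums of 1799 to 3158 against 2908 to 5119. Their part in the members' values was not tested.

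The sign of a member's log2 fold change in the Vangl1/2 experiment went with the length of its transcript. The rank correlation between the 2 was 0.72 across the 37 members, 0.83 across the 20 mitosis genes and 0.20 across the 15 S phase genes, and it was 0.70 across all 14185 genes tested that had a length. Genes of 1 experiment share libraries and are not independent, so these are descriptions. In classes of length set after the values were seen, the 3 members over 7 kb (Mki67, Cenpe and Cenpf) all lay above 0, and the 13 members under 3 kb all lay below 0, from -0.37 to -0.06. The deviation of a library from the mean of its gene correlated with length at -0.65 and -0.61 in control replicates 1 and 3, at 0.37 in control replicate 2 and at 0.47 to 0.59 in the mutants. Thus control replicates 1 and 3 had relatively fewer reads on long transcripts than the other 4 libraries.

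With the trend on length removed from every library, the long members no longer stood out. Mki67 went from 0.58 to 0.02, Cenpf from 0.56 to -0.05, Cenpe from 0.46 to 0.02 and Ccnd2 from 0.46 to 0.12. At an unadjusted p under 0.05, 0 members were then higher, against 4.85% of all genes, and 3 were lower, against 3.91%: Gins2 (-0.49), Cdk1 (-0.49) and Birc5 (-0.25). The sign changed for 8 of the 37 members: Top2a, Bub1b, Aurkb, Kif11, Cenpf, Tpx2, Anln and Rrm2. Gins2 and Cdk1 lie below the other members of like length in the plot of fold change by length. Their annotated lengths are medians over transcripts, 3900 bases for Gins2 and 4375 bases for Cdk1, and which transcript the lungs used was not tested.

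**Figure D3:**
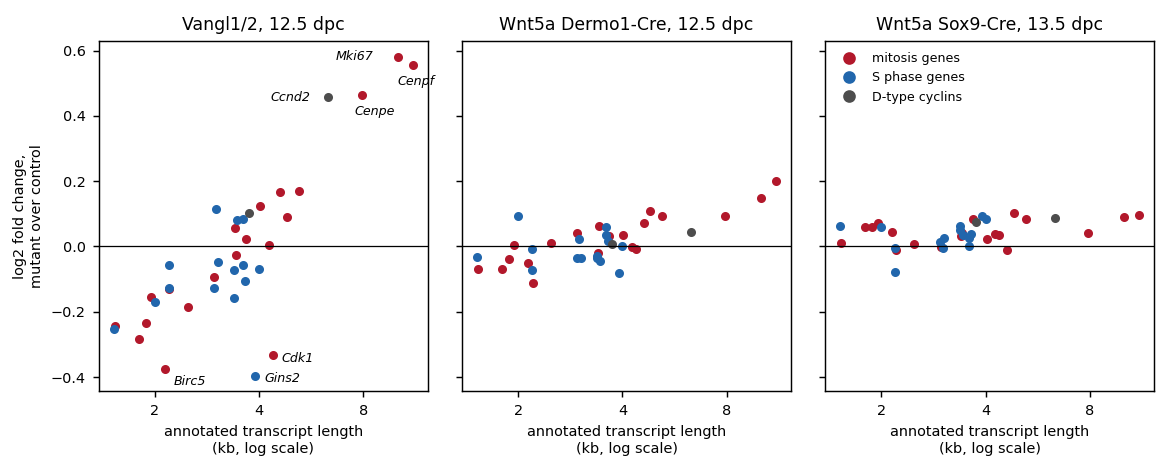
Log2 fold change of the 37 members, mutant over control, by annotated transcript length in kilobases on a log axis, with 1 panel per experiment. The rank correlations for Vangl1/2, then Dermo1-Cre, then Sox9-Cre were 0.72, 0.62 and 0.38 over the 37 members, and 0.70, 0.23 and -0.03 over all genes tested with a length.

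In the Dermo1-Cre mutants, in which Wnt5a was targeted in the mesenchyme, the members were close to their controls. All 37 log2 fold changes lay between -0.11 (Plk1) and 0.20 (Cenpf), and all 95% intervals lay between -0.28 and 0.37. Of the 37 members 0 passed an adjusted p of 0.05 by limma, edgeR or DESeq2, and of all 14277 genes tested 0.014% did by limma. At an unadjusted p under 0.05, 3 members were higher (Cenpf, Mki67 and the spindle motor Kif11), against 5.42% of all genes, and Plk1, a mitotic kinase, was lower, against 4.76%. The median of the members was 0.0057, and that of all genes tested 0.00071. On simulated data with the spread of this experiment, limma recovered 85% of genes changed by 1.5-fold. Changes as small as those of the members were not simulated.

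Mki67 lay at 15793, 15645 and 14776 normalized counts in the controls and at 18670, 15544 and 17178 in the mutants. Cenpf lay at 3835, 3680.4 and 3556 normalized counts in the controls and at 4758, 3797 and 4229 in the mutants. Kif11 lay at 4388, 4283 and 4239 normalized counts in the controls and at 4841, 4386 and 4711 in the mutants. Mutant replicate 1 was the highest of the 6 libraries in all 3 genes, while the library labelled mutant replicate 2 lay between the lowest and the highest control in each. The log2 fold changes were 0.15 ± 0.06 (SE), 0.20 ± 0.07 (SE) and 0.11 ± 0.04 (SE). Top2a lay at 13498, 13478 and 12561 normalized counts in the controls and at 14965, 13107 and 14147 in the mutants. Plk1 lay at 2807, 2897.5 and 2714 normalized counts in the controls and at 2521, 2588 and 2676 in the mutants. Top2a overlapped at 0.09 ± 0.06 (SE), while all 3 mutant libraries of Plk1 lay below the controls, at -0.11 ± 0.04 (SE).

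Ccnb1 lay at 3053, 3054 and 3019 normalized counts in the controls and at 2886, 3154 and 3162.5 in the mutants. Cdk1 lay at 3440.1, 3654 and 3387 normalized counts in the controls and at 3423.5, 3429 and 3567 in the mutants. Ccnd1 lay at 6113, 6112 and 5636 normalized counts in the controls and at 6305.5, 5925 and 5716 in the mutants. None of these separated the groups, and the log2 fold changes were 0.01 ± 0.05 (SE) for Ccnb1, -0.0080 ± 0.04 (SE) for Cdk1 and 0.0067 ± 0.05 (SE) for Ccnd1. Ccnd2 lay at 10025, 10245 and 9671 normalized counts in the controls and at 10459, 10297 and 10093 in the mutants. Mcm2 lay at 4549, 4515 and 4223 normalized counts in the controls and at 4314, 4157 and 4492 in the mutants. Mcm6 lay at 6045.5, 6248 and 5877 normalized counts in the controls and at 6134, 6044 and 6193 in the mutants. Ccnd2 at 0.04 ± 0.04 (SE), Mcm2 at -0.04 ± 0.05 (SE) and Mcm6 at 0.02 ± 0.04 (SE) overlapped as well.

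Pcna lay at 5723, 5746 and 5378 normalized counts in the controls and at 5391, 5457 and 5629 in the mutants. Rrm2 lay at 3427, 3299 and 3450.1 normalized counts in the controls and at 3293, 3314 and 3515 in the mutants. Uhrf1 lay at 5123, 4997 and 4622 normalized counts in the controls and at 4874, 4633.5 and 4787 in the mutants. The log2 fold changes were -0.03 ± 0.04 (SE) for Pcna, -0.0080 ± 0.04 (SE) for Rrm2 and -0.04 ± 0.05 (SE) for Uhrf1, again with overlapping groups. Cdt1 lay at 1195.5, 1211 and 1145 normalized counts in the controls and at 1085, 1123 and 1170.3 in the mutants. Gins2 lay at 673, 658 and 654 normalized counts in the controls and at 586, 603 and 693 in the mutants. Ccne1 lay at 1264, 1268 and 1198 normalized counts in the controls and at 1286, 1304 and 1392 in the mutants. Cdt1 (-0.07 ± 0.05) and Gins2 (-0.08 ± 0.07) were, after Plk1, the lowest members. Ccne1, at 0.09 ± 0.05 (SE), was the only member with all mutants above all controls, 1 of 37 against 7.65% of all genes, and Plk1 the only member with all mutants below, 1 of 37 against 7.92%. The remaining members, Ccna2, Ccnb2, Cdc20, Bub1, Bub1b, Aurka, Aurkb, Birc5, Kif23, Cenpe, Tpx2, Ect2, Anln, Mcm3, Mcm4, Mcm5, Mcm7, Cdc6, Rrm1 and Ccne2, lay between -0.07 and 0.09.

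Without the library labelled mutant replicate 2, 0 members passed an adjusted p of 0.05, the smallest being 0.156 by limma, and the median was 0.03. At an unadjusted p under 0.05, 7 members were then higher, against 7.14% of all genes, and 0 were lower, against 6.17%. The unadjusted calls rested on single libraries elsewhere too: 0 members were higher without mutant replicate 1, control replicate 2 or control replicate 3, against 4.08%, 3.29% and 5.2% of all genes, and 3 were lower without mutant replicate 3, against 3.94% of all genes. The rank correlation of fold change with transcript length was 0.62 across the members and 0.85 across the mitosis genes, against 0.23 across all 14164 genes with a length. After the trend on length was removed it was 0.37 across the members, 0.66 across the mitosis genes and -0.00078 across all genes with a length. Cenpf went from 0.20 to 0.10 and Mki67 from 0.15 to 0.06. Of the lists of markers of other cell types, that of neurons differed most in this experiment: all 8 of its genes were higher in each mutant than in each control, with sums of 980.2 to 2439.5 normalized counts against 419.5 to 778. The 8 epithelium markers summed to 12558 to 12684 in the mutants and 13585 to 14273 in the controls, with 4 of them lower without overlap. The part of these cells in the members' values was not tested.

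In the Sox9-Cre mutants at E13.5, in which Wnt5a was targeted in the epithelium, the members lay close to their controls, more of them above than below. The log2 fold change of 19 of the 37 members crossed 0 with some library left out. Of the 37 members 31 had a log2 fold change above 0, with a median of 0.04 beside 0.0013 for all genes tested, and the range was from -0.08 (Cdt1) to 0.10 (Kif11). Of the 37 members 0 passed an adjusted p of 0.05 by limma, and of all 14293 genes 0% did. At an unadjusted p under 0.05, 0 members were higher, against 1.08% of all genes, and 0 were lower, against 2.81%. By edgeR and DESeq2, 0 members passed either threshold. The 95% intervals of all members lay between -0.36 and 0.42, and on simulated data with the spread of this experiment limma recovered 77% of genes changed by 1.5-fold. Here too, changes as small as those of the members were not simulated.

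Mki67 lay at 14493, 15230 and 16814 normalized counts in the controls and at 13720, 16083 and 20340 in the mutants. Top2a lay at 12875, 13454 and 13886 normalized counts in the controls and at 12667, 14025 and 16167 in the mutants. Cenpf lay at 3464, 3847 and 3946 normalized counts in the controls and at 3302, 3787 and 5139 in the mutants. In all 3 genes mutant replicate 3 was the highest and mutant replicate 1 the lowest of the 6 libraries, so the mutants enclosed the controls. The log2 fold changes were 0.09 ± 0.13 (SE) for Mki67, 0.09 ± 0.09 (SE) for Top2a and 0.10 ± 0.14 (SE) for Cenpf. Kif11 lay at 4244, 4214 and 4375 normalized counts in the controls and at 4015, 4609.8 and 5242 in the mutants. Anln lay at 2761, 2966 and 3068.5 normalized counts in the controls and at 2558, 2914 and 3296 in the mutants. Plk1 lay at 2739.5, 2769.9 and 2691 normalized counts in the controls and at 2749, 2747 and 2649.9 in the mutants. Kif11, the highest member at 0.10 ± 0.09 (SE), and Anln, near the low end at -0.01 ± 0.09 (SE), had the same order of mutant libraries, and Plk1 lay at -0.0098 ± 0.04 (SE).

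Ccnb1 lay at 3025, 3179 and 2994 normalized counts in the controls and at 2920, 3065 and 3258 in the mutants. Cdk1 lay at 3538, 3489 and 3476.5 normalized counts in the controls and at 3655, 3562 and 3552 in the mutants. Ccnd1 lay at 5817, 5954 and 5395 normalized counts in the controls and at 5528, 6285 and 6301 in the mutants. All 3 mutants of Cdk1 lay above all 3 controls, but by 0.04 ± 0.04 (SE) on the log2 scale, while Ccnb1 (0.0061 ± 0.06) and Ccnd1 (0.08 ± 0.07) overlapped. Ccnd2 lay at 9197, 9905 and 9919 normalized counts in the controls and at 8776, 10147 and 12129 in the mutants. Mcm2 lay at 4375, 4514 and 4413 normalized counts in the controls and at 4488, 4714 and 4585 in the mutants. Mcm6 lay at 5739.6, 6188 and 5729 normalized counts in the controls and at 6296, 5349 and 6559.6 in the mutants. Ccnd2 was again enclosed by mutant replicates 1 and 3, at 0.09 ± 0.10 (SE), and Mcm2 (0.05 ± 0.04) and Mcm6 (0.04 ± 0.08) overlapped.

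Pcna lay at 4951, 4923 and 4848 normalized counts in the controls and at 5072, 5087 and 5206 in the mutants. Rrm2 lay at 3467, 3448 and 3392 normalized counts in the controls and at 3212, 3657 and 3426 in the mutants. Uhrf1 lay at 4797, 5041 and 4699 normalized counts in the controls and at 4735, 5088 and 5089.6 in the mutants. Pcna was higher in each mutant than in each control, at 0.06 ± 0.04 (SE), whereas Rrm2 (-0.0036 ± 0.06) and Uhrf1 (0.04 ± 0.05) overlapped. Cdt1 lay at 1244, 1272 and 1175 normalized counts in the controls and at 1170.1, 1218 and 1108 in the mutants. Ccne1 lay at 1329, 1424 and 1311 normalized counts in the controls and at 1322, 1451 and 1459.7 in the mutants. Gins2 lay at 679, 652 and 659 normalized counts in the controls and at 752, 717 and 657 in the mutants. Cdt1 was the lowest member at -0.08 ± 0.06 (SE), Ccne1 lay at 0.06 ± 0.06 (SE) and Gins2 at 0.09 ± 0.07 (SE), with overlapping groups in each. In all, 5 members (Cdk1, Aurkb, Mcm5, Pcna and Rrm1) had all mutants above all controls, against 4.42% of all genes, and 0 had all mutants below, against 4.36%. The remaining members lay between -0.0047 (Ccne2) and 0.09 (Bub1b).

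Counts in the Sox9-Cre experiment rested on mutant replicate 1. Without it 7 members were higher at an unadjusted p under 0.05, against 4.49% of all genes, and 18 had groups that did not overlap, against 14.2%, with a median of 0.07. No member passed an adjusted p of 0.05 in that fit, where the smallest was 0.293 by limma. Without mutant replicate 3 the median was 0.0084, and at an unadjusted p under 0.05, 1 member was higher, against 1.44% of all genes, and 1 lower, against 3.66%. The deviation of the mutant libraries from the gene means correlated with transcript length at -0.39, -0.02 and 0.34 in replicates 1, 2 and 3. Markers of cardiomyocytes summed to 860.05 to 5514 normalized counts in the mutants and 5046 to 17951 in the controls, and those of erythroid cells to 23901 to 35163 and 32923 to 35833, while Hba-a1 and Hba-a2 of the erythroid list are listed at 0. The sums of 3 lists were lower in each mutant than in each control: mesenchyme (58904 to 65574 against 65915 to 80435), endothelium (12407 to 12709 against 12816 to 12973) and mesothelium (2068 to 2621 against 2650.4 to 3247, with 2 of its 4 genes lower without overlap). Sums weigh the most abundant genes. The median log2 fold changes of these lists were 0.035, -0.046 and -0.51. Only 1 of 8 mesenchyme genes and 1 of 6 endothelium genes were lower without overlap. Their part in the members' values was not tested.

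The 2 large role groups were compared by their medians, as a description. In the Vangl1/2 experiment the S phase genes had a median log2 fold change of -0.07 and the mitosis genes of -0.010, a difference of -0.06. With the trend on length removed these were -0.04 and -0.06, and the difference turned to 0.013. Left-out libraries moved it too, to -0.11 without control replicate 2 and to -0.0061 without control replicate 1. In the Dermo1-Cre experiment the medians were -0.03 and 0.02, with a difference of -0.05, and -0.04 with the trend removed, or -0.02 without mutant replicate 1. In the Sox9-Cre experiment they were 0.04 and 0.04, and differed by -0.0055, with left-out libraries giving -0.02 (without control replicate 3) to 0.02 (without mutant replicate 3). In single libraries, the summed normalized counts of the S phase genes were 0.877, 0.713 and 0.878 times those of the mitosis genes in Vangl1/2 control replicates 1, 2 and 3, and 0.738, 0.707 and 0.741 in the mutants. Control replicate 2 thus lay with the mutants in this ratio too. In the Dermo1-Cre experiment the ratio was 0.660 in each of the 3 controls and 0.603, 0.641 and 0.640 in the mutants, which all lay below the controls. For the Sox9-Cre experiment the ratio was 0.664, 0.659 and 0.627 in controls and 0.684, 0.650 and 0.592 in the mutants, and overlapped. The sums weigh Mki67 and Top2a most, since these are long and abundant, and they are not corrected for length. Together the 37 members took 0.895% to 1.04% of all gene reads in the 18 libraries.

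Other genes of the cell cycle were taken from lists by function. None of 40 other S phase genes, 54 other mitosis genes, 5 further G1 cyclins and kinases, 18 transcription factors and the 10 tested of 12 inhibitors and pocket proteins passed an adjusted p of 0.05 in any of the 3 experiments by limma, edgeR or DESeq2. At an unadjusted p under 0.05 by limma, 2 other S phase genes were higher and 3 lower in the Vangl1/2 experiment, and 6 other mitosis genes were higher and 5 lower, beside 12% and 8.56% of all genes. In the Dermo1-Cre experiment 2 were higher and 1 lower in each of these lists, beside 5.42% and 4.76% of all genes, and in the Sox9-Cre experiment 1 other S phase gene was higher, beside 1.08%. In the remaining lists, Cdk6, E2f3, E2f7, E2f8 and Tfdp2 were higher and Lin37, Cdkn2d and Cdkn3 lower at this threshold in the Vangl1/2 experiment. Lin52 was higher and Btg2 lower in the Dermo1-Cre experiment, and Cdkn2c was lower in the Sox9-Cre experiment. Cdkn2a and Cdkn2b did not pass the filter on low values. In the Vangl1/2 experiment 33 of the 40 other S phase genes and 35 of the 54 other mitosis genes lay below 0, with medians of -0.19 and -0.08. With the trend on length removed the medians were -0.07 and -0.04. The smallest p-values belonged to Cdk6, the partner kinase of the D-type cyclins, with a log2 fold change of 1.05 ± 0.26 (SE), and to E2f3, with 0.38 ± 0.11. Cdk6 lay at 119.8, 251 and 137 normalized counts in the controls and at 309.96, 355 and 334 in the mutants, without overlap, and its transcript is annotated at 11525 bases. With the trend on length removed the log2 fold change of Cdk6 was 0.43 and that of E2f3 0.20. E2f7 went from 0.33 to 0.06, E2f8 from 0.31 to 0.25 and Tfdp2 from 0.31 to 0.40. Without control replicate 2, 27 of the other S phase genes (2 higher and 25 lower) and 23 of the other mitosis genes (7 higher and 16 lower) passed an adjusted p of 0.05 by limma, beside 21.7% higher and 22% lower of all genes. The trend on length was not removed in that fit. With 1 library left out, 0 to 8 of the transcription factors, 0 to 5 of the inhibitors and pocket proteins and 0 to 3 of the further G1 genes passed it.

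In the Dermo1-Cre experiment the medians of these lists were 0.012 for the other S phase genes and 0.0011 for the other mitosis genes. The smallest p-values belonged to Ncapd3, a condensin subunit (0.17 ± 0.05), and to Rfc4, of the clamp loader (0.18 ± 0.05). In the Sox9-Cre experiment 35 of the 40 other S phase genes and 45 of the 54 other mitosis genes lay above 0, with medians of 0.05 and 0.05, and Orc3, of the origin recognition complex (0.14 ± 0.06), and the inhibitor Cdkn2c (-0.38 ± 0.16) had the smallest p-values. Of the Cdk inhibitors, Cdkn1a (p21) was low and scattered: its log2 fold changes were 0.12 ± 0.17 for Vangl1/2, 0.28 ± 0.32 for Dermo1-Cre and -0.11 ± 0.31 for Sox9-Cre mutants. Cdkn1c (p57) was abundant, at 13190, 11975 and 12011 normalized counts in the Vangl1/2 controls and 11094, 10586 and 10370 in the mutants. These groups did not overlap, at -0.21 ± 0.09 (adjusted p = 0.246 by limma), and at -0.05 with the trend on length removed. In the other experiments Cdkn1c differed by -0.13 ± 0.10 and -0.07 ± 0.06, with overlapping groups.

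Between the Dermo1-Cre controls at E12.5 and the Sox9-Cre controls at E13.5 the members were nearly level. The 3 Sox9-Cre controls at E13.5 were set beside the 3 Dermo1-Cre controls at E12.5, on RPM (gene reads of a library scaled to a common total), with no test, because stage cannot be told apart from the Cre line and the experiment and each table was normalized on its own. The median log2 difference of the 37 members was -0.02, with a range of -0.20 to 0.11, beside a median of 0.011 for 14395 genes. Of the 37 members 27 lay below 0, among them 16 of the 20 mitosis genes, beside 6453 of the 14395 genes. Mki67 lay at 979, 968 and 927 RPM in the E12.5 controls and at 897, 937 and 1039 in the E13.5 controls. Pcna lay at 355, 356 and 337 and at 306, 303 and 299.6 (log2 difference -0.20), without overlap. Ccne1 lay at 78.3, 78.4 and 75.1 and at 82.3, 87.6 and 81.0 (0.11), also without overlap. Pcna, Mcm5 and Kif23 were the members with all E13.5 controls lower, 3 of 37 against 5.62% of all genes, and Ccne1 the only member with all of them higher, against 8.11%. The mitosis genes had a median of -0.02 and the S phase genes of -0.0080.

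**Figure D4:**
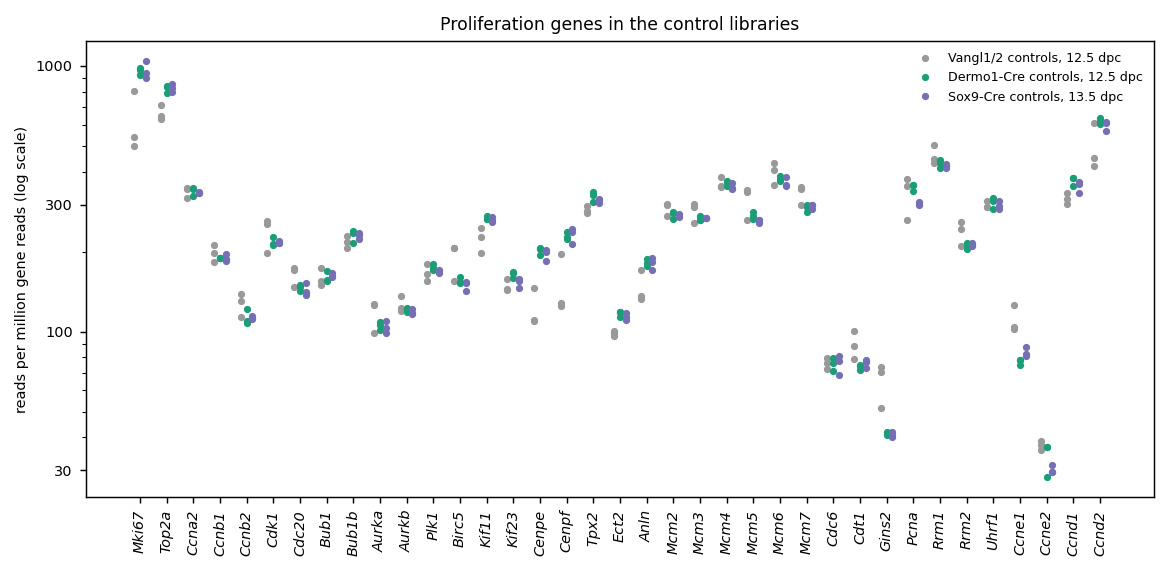
RPM over gene reads, on a log axis, of the 37 members in the 9 control libraries, with 3 points for each of the Vangl1/2 (E12.5), Dermo1-Cre (E12.5) and Sox9-Cre (E13.5) controls. The Dermo1-Cre and Sox9-Cre controls lie close together, with a median log2 difference of -0.02. The Vangl1/2 controls stand apart for some genes, such as Cenpe and Gins2.

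The Vangl1/2 controls stood apart from both other control groups. The Dermo1-Cre and Vangl1/2 controls are both from E12.5, and their members differed by -0.64 (Gins2) to 0.74 (Cenpe) on the log2 scale, with a median of -0.0090. Of the 37 members, 10 were higher and 4 lower in all Dermo1-Cre controls. Of all 14343 genes compared, 2495 were higher and 2611 lower in this way, so such differences were found outside the members too. Among the 20 mitosis genes 9 were higher and 0 lower, and among the 15 S phase genes 0 were higher and 4 lower. Whether the members differ from all genes in these shares was not tested. Cenpe lay at 109, 146 and 110 RPM in the Vangl1/2 controls, at 204, 195 and 207 in the Dermo1-Cre controls and at 184, 199 and 202 in the Sox9-Cre controls. Gins2 lay at 70.1, 51.3 and 73.4, at 41.7, 40.7 and 41.0, and at 42.0, 40.1 and 40.7 in the same order. In both genes Vangl1/2 control replicate 2 was the library of its group nearest to the other 2 groups. The annotated transcripts are 7910 bases for Cenpe and 3900 bases for Gins2, and the part of the trend on length in these differences was not tested. The controls of these experiments differ in genotype as well, Vangl1-/- against Wnt5a f/+ with a Cre, which cannot be told apart from the experiment.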

How the data were processed

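RNA of 18 whole embryonic lung samples was sequenced by the authors on an Illumina platform. Per the submitters' processing notes, reads were handled with Trim Galore, HISAT2, featureCounts and DESeq2 on mm10; versions and the gene annotation are not given in the sources used here. The authors deposited 3 tables, 1 per experiment, with a signal column per library (reads per gene divided by a size factor). All values could be returned to whole reads (100%, largest deviation 4.6e-05 reads). The deposited columns of the authors' log2 fold changes and p-values were not used.

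A gene was kept where 3 or more of the 6 libraries reached 10 normalized counts. Log2(normalized count + 1) was fitted by limma 3.58.1 (trend) in R 4.3.3 within each table, with Benjamini-Hochberg adjustment over all genes kept and a threshold of 0.05. Fold changes are on the log2(value + 1) scale. Alternatives were edgeR 4.0.16 (quasi-likelihood) and DESeq2 1.42.0 on recovered reads, a pseudocount of 5, no filter, total-count and TMM scaling, a replicate block, removal of the trend on transcript length, and each library left out. Lengths are medians over annotated transcripts of GENCODE on GRCm38, for 98.4% of 23420 genes, and RPKM and RPM values were computed from the recovered reads. The fits were tested on simulated data, with 100 genes changed by 2-fold and 100 by 1.5-fold for each experiment. The simulated data held no trend on length and more changed genes than passed in the lungs. Recovery can therefore be higher there than in the lungs. Described genes were all 37 members by role, with library values for 13 members and for the 3 highest and 3 lowest of each experiment, and, of the other lists, the 2 genes of smallest p in each experiment with Cdkn1a and Cdkn1c. The members and lists were chosen with earlier results of these data known. Library values of a few further members (Cenpe, Kif11, Top2a, Plk1, Cdc20, Birc5 and Gins2 among them) were added where a count of members turned on them, after their values were seen.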

Additional observations from a re-analysis of the deposited data

How the results depend on the processing

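No member passed the adjusted threshold in the Dermo1-Cre and Sox9-Cre experiments under any alternative run. In the Vangl1/2 experiment the count was 0 under all alternatives except without control replicate 2; with 1 library left out it ranged from 0 to 19, and the median of the members from -0.16 to -0.0048. The replicate numbers did not pair the samples by the correlation of their deviations, and with a replicate block 0 members passed in each experiment, with smallest adjusted p of 0.214, 0.280 and 0.929 by limma. With the length trend removed, the members whose groups did not overlap in the Vangl1/2 experiment numbered 1, and 8 of the 37 members reversed there, among them Cenpf (-0.0499), Rrm2 (0.0627) and Top2a (-0.0736). In the Dermo1-Cre experiment 3 reversed, among them Pcna (0.0031) and Rrm2 (0.014), and in the Sox9-Cre experiment 1 did, Cdc6. With total-count scaling 5 members did not overlap in the Dermo1-Cre experiment, and, of the members described by library, Cdk1 (0.0021) and Rrm2 (0.0021) reversed. The shares of all genes without overlap under length removal and total-count scaling are not given here, so the counts of 1 and 5 are not a result about the members. With TMM scaling Rrm2, of the same members, reversed in the Sox9-Cre experiment (0.0026). Against the Vangl1/2 controls the median difference at E13.5 was -0.0545, with a range of -0.65 to 0.69. There 9 members were higher and 6 lower without overlap, beside 3027 and 2521 of 14412 genes. The cause was not tested.

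With 1 library left out, the members whose groups did not overlap numbered 7 to 25 for Vangl1/2, 3 to 12 for Dermo1-Cre and 5 to 18 for Sox9-Cre mutants, partly because fewer libraries overlap less often. The counts were highest without Vangl1/2 control replicate 2, without Dermo1-Cre mutant replicate 2 and without Sox9-Cre mutant replicate 1. The log2 fold change crossed 0 with some library left out for 6, 14 and 19 of the 37 members in the same order. Of the members described by library these were Rrm2 in the Vangl1/2 experiment (-0.181 to 0.0165), Ccnb1 (-0.0120 to 0.0540), Ccnd1 (-0.0323 to 0.0389), Cdk1 (-0.0301 to 0.0248), Mcm6 (-0.0053 to 0.0389) and Rrm2 (-0.0379 to 0.0091) in the Dermo1-Cre experiment, and Anln (-0.101 to 0.0813), Ccnb1 (-0.0349 to 0.0440), Ccnd2 (-0.0349 to 0.199), Cenpf (-0.0835 to 0.236), Mcm6 (-0.0194 to 0.128), Mki67 (-0.0598 to 0.224), Plk1 (-0.0209 to 0.0077), Rrm2 (-0.0505 to 0.0431) and Top2a (-0.0076 to 0.168) in the Sox9-Cre experiment. On simulated data limma recovered 30% of genes changed by 1.5-fold in the Vangl1/2 experiment, so changes of that size and smaller ones could be missed there.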
